A study of Mus musculus with 6 samples.

Results

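The collagen genes of wild-type (WT) mouse embryonic fibroblasts (MEFs) were read from RNA-seq count and TPM tables. TPM is a level scaled by the length of the transcript and by the total of the library. Comparing genes with each other by TPM depends on the lengths used, which are not given in the sources used here. The genes were those named Col, a number, the letter a and a number, with at least 10 counts in each of the 6 libraries. This gave 24 of the 44 collagen genes listed, among 55291 genes in the table. They comprised 9 of 11 fibrillar, 4 of 6 basement membrane, 3 of 6 beaded-filament and 4 of 9 FACIT collagen genes, and 4 of the 12 that belong to none of these classes. FACIT stands for fibril-associated collagens with interrupted helices. The MEFs came from another laboratory and carried WT mitofusins, the outer mitochondrial membrane proteins that fuse mitochondria. There were 2 libraries in each of 3 groups, namely MEFs given vehicle, MEFs given the mitofusin activator MASM7 at 1 µM for 6 h, and MEFs given the mitofusin inhibitor MFI8 at 20 µM for 6 h. The doses and times of the compounds come from the study's text, and for vehicle no duration is given in the sources used here. The compounds were given at different doses, so compound and dose cannot be told apart.

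Collagens are the main structural proteins of the extracellular matrix, and fibroblasts are their main source in connective tissue. Each molecule is a rope of chains wound around each other, which requires glycine at a fixed spacing along the chain. Fibrillar collagens such as types I, III and V assemble into banded fibrils, type IV forms the network of basement membranes, and type VI forms beaded microfilaments around cells. FACIT collagens sit on the surface of fibrils. Chains are hydroxylated and folded in the endoplasmic reticulum, secreted as procollagens, trimmed and then crosslinked outside the cell.

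Many of the genes, above all the fibrillar ones, carried a feature of sequence that the choice of genes did not use. In GENCODE vM21 on GRCm38, exons of exactly 54 bases made up 48.2% of the 515 internal exons of the 9 fibrillar collagen genes and 25.6% of the 1213 internal exons of all 24, against 0.43% of the 164807 internal exons of other protein-coding genes. In 246 of the 248 exons of that length in fibrillar collagen genes, the letters GG, which begin every codon for glycine, stood at the exon's start and again every 9 bases. None of the 708 exons of the same length in other protein-coding genes (0 of 708) had GG at all 6 of these positions. Collagen genes outside the 24 were left out of these other genes as well, so the values do not describe them. The first such exon of the type I and III chains and of the type V chains Col5a1 and Col5a2 is shown to make this repeat visible, with GG at those positions in capitals. The exons are exon 8 of 51 of Col1a1 (chr11:94939904-94939957, plus strand), exon 8 of 52 of Col1a2 (chr6:4515481-4515534, plus strand), exon 6 of 51 of Col3a1 (chr1:45325360-45325413, plus strand), exon 15 of 66 of Col5a1 (chr2:27965251-27965304, plus strand) and exon 6 of 54 of Col5a2 (chr1:45434892-45434945, minus strand).
Col1a1: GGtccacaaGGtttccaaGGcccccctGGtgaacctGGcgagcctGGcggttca
Col1a2: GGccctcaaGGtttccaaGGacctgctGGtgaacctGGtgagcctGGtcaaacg
Col3a1: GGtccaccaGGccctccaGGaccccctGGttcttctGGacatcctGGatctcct
Col5a1: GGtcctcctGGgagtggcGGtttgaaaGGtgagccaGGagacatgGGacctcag
Col5a2: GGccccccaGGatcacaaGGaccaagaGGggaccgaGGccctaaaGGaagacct

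Exons of this length were less frequent in the other classes, each summed over its genes. Exons of 54 bases were 4.21% of the internal exons of the type IV genes, 7.92% of those of the type VI genes, 17.3% of those of the FACIT genes and 5.71% of those of the 4 genes outside these classes, and Col8a1 had 0. The FACIT gene Col9a3 had 14 such exons among 31 (45.2%), close to the fibrillar share, whereas the other FACIT genes had 6.25% to 17.6%. All 8 such exons of the type IV genes, all 8 of the type VI genes and 32 of 34 of the FACIT genes held the same repeat, but only 5 of the 12 (41.7%) outside these classes. The median GC content of the longest transcript was 56.8% for the collagen genes and 49.5% for all genes tested, and its median length was 6083.5 bases against 3067. Some values are therefore also given from a fit with offsets that correct for GC content and transcript length.

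The libraries held between 22791792 and 30677751 counts on genes, and factors of the TMM normalization were between 0.9906 and 1.0083. Each group's libraries are called library 1 and library 2 after their sample titles. The labels do not say whether they came from separate cultures, although the series' design calls them independent biological replicates, so that p-values measure the spread between these libraries. Of 10 fibroblast markers, 9 passed the filter on low counts, with Vim at 1965.9 to 2531.0 TPM and S100a4 at 1363.6 to 1963.2 TPM. Fap was listed at 0 in 5 libraries and Thy1 was at 0.283 to 0.751 TPM. Summed levels of markers of other cells were at most 1.69 TPM for 6 epithelial, 0.433 TPM for 5 endothelial and 0.719 TPM for 3 adipocyte genes. They were 13.4 to 16.9 TPM for 5 hematopoietic, 29.3 to 43.8 TPM for 5 chondrocyte, 26.7 to 31.6 TPM for 5 osteoblast and 48.3 to 70.0 TPM for 5 neural genes. Most of these levels came from Cd68, Sox9, Runx2 and Tubb3, whereas the defining genes Ptprc, Comp, Ibsp and Sox10 were each at or below 0.12 TPM in every library. The muscle list reached 280.1 to 613.4 TPM through Acta2 and is given with the library numbers below.

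Type I collagen, the main fibril of skin and bone, dominated the collagen transcripts in every library. The counts of the 24 genes were between 0.664% and 0.829% of all counts on genes. The summed level of the 24 genes was 3665 and 2972 TPM in the vehicle libraries, 3626 and 3216 TPM in those of MASM7, and 3383 and 2933 TPM in those of MFI8. Col1a1 and Col1a2 together made up between 55.9% and 57.9% of that sum, and with Col6a1, Col5a2 and Col5a1 between 80.2% and 82.6%. Fibrillar genes held 70.5% to 74.2% of the sum, beaded-filament genes 11.3% to 14.6%, basement membrane genes 5.29% to 6.67% and FACIT genes 2.96% to 3.53%. In bulk RNA, fewer cells of a type and less RNA per cell cannot be told apart, so these levels describe the culture as a whole.

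With vehicle, Col1a1 was at 1270.5 ± 233.2 TPM (SD, n = 2), rank 70 of all genes by mean level, and Col1a2 at 621.3 ± 90.5 TPM (SD, n = 2), rank 202. Col6a1, at 366.2 ± 96.1 TPM, and Col5a2, at 298.9 ± 32.7 TPM, overlapped between libraries and could not be ordered. They were followed by Col5a1 at 168.2 ± 15.7 TPM and Col8a1 at 141.0 ± 1.24 TPM, each without overlap with the next. Neighbours overlapped in the run of Col4a1, Col16a1, Col6a2 and Col4a2, between 81.5 and 65.6 TPM on average, and in the run of Col18a1, Col3a1, Col4a5 and Col12a1, between 27.3 and 23.4 TPM. The same held for Col5a3, Col6a3, Col7a1 and Col4a6, between 14.2 and 9.84 TPM. Lower levels were found for Col11a2, Col11a1 and Col27a1, at 2.07 to 2.61 TPM, and for Col9a3, Col20a1 and Col17a1, which were all below 1 TPM on average.

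**Figure D1:**
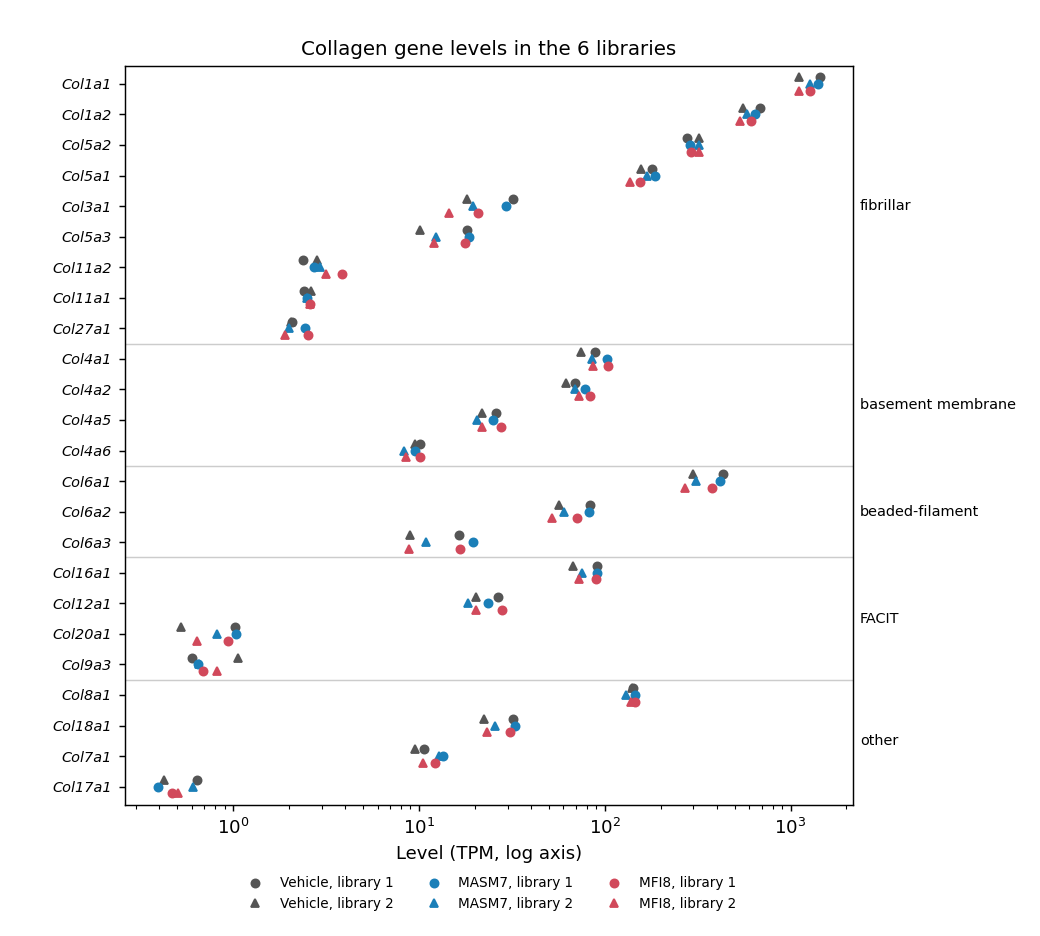
Level of each of the 24 collagen genes in TPM on a log axis, with 1 point per library, coloured by group and shaped by library number. Genes are arranged by class and, within a class, by level. Col1a1 lies between 1105.6 and 1435.3 TPM and Col17a1 between 0.394 and 0.640 TPM, and for most genes the triangles (library 2) lie to the left of the circles (library 1) of the same colour.

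At the limit of 10 counts, the lowest counts inside it were 15 for Col9a3, a chain of the FACIT collagen IX of cartilage, and 18 for Col17a1, a transmembrane collagen of epithelial hemidesmosomes. Just outside it were Col22a1, with counts of 10 and 4 for vehicle, 26 and 8 for MASM7 and 9 and 6 for MFI8, and Col2a1, the fibrillar collagen of cartilage, with 0 and 1, 4 and 2, and 2 and 2. Of the 20 collagen genes outside the limit, 19 had at most 4 counts in any library and 6 had none. The type IV chains Col4a3 and Col4a4, which form the network of kidney and lung together with Col4a5, were at 0 counts and at most 1 count. A gene with a count of 0 was not detectable at this depth, which does not show that it is absent.

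Before the treatments are compared, a difference between libraries of the same group has to be described, because for most collagen genes it had the same direction in all 3 groups. In all 3 groups library 2 was below library 1 for 19 of the 24 collagen genes (79.2%) on the scale of CPM, which divides counts by library size and TMM factor. The share of all genes tested with that pattern was 19.4%. The median difference of the 24 genes, library 2 minus library 1 in log2 CPM, was -0.29 for vehicle, -0.22 for MASM7 and -0.27 for MFI8, whereas the median over all genes tested was at most 0.006. For 20 of the 24 genes, the mean size of this difference over the 3 groups exceeded the size of the log2 fold change of either compound against vehicle. The share of all genes tested was not computed for this count. A difference between single libraries varies more than one between means of 2, so the count alone does not show an effect of the library number. The labels name no batch behind the numbers. A fit with the number as a replicate block, which compares libraries of the same number, is given beside the counts that it changes.

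Col6a3, the long chain of type VI collagen, had a large and even difference of this kind, with -0.90, -0.84 and -0.91 in log2 CPM for vehicle, MASM7 and MFI8. Col3a1, the partner of type I in skin and vessels, differed by -0.83, -0.57 and -0.52, and Col5a3 by -0.85, -0.58 and -0.56. All 4 type IV and all 3 type VI genes were lower in library 2 in the 3 groups. The reverse, with library 2 higher in all 3 groups, was seen for Col5a2, Col11a1 and Col9a3, 3 of 24 genes, against 20.5% of all genes tested. Col5a2 differed by 0.21, 0.16 and 0.14, and thus went against Col5a1, whose chain it joins in type V collagen. Col11a2 and Col17a1 had no common direction.

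Markers moved with the library number as well. The summed level of 10 fibroblast markers was 5148 and 4242 TPM with vehicle, 5255 and 4601 TPM with MASM7, and 5039 and 4083 TPM with MFI8, lower in library 2 each time. The summed level of 6 muscle markers was higher in library 2 each time, at 280.1 and 501.6 TPM, 379.3 and 613.4 TPM, and 393.2 and 612.5 TPM. Nearly all of this was Acta2, smooth muscle actin, which activated fibroblasts also express, while Myod1 and Myog were at 0 in every library. The part of these markers in the difference was not tested. The neural list differed between groups instead, at 48.3 and 51.5 TPM with vehicle, 64.1 and 64.1 TPM with MASM7, and 70.0 and 63.1 TPM with MFI8. Nearly all of it was Tubb3, a tubulin of neurons, with log2 fold changes of 0.40 (SE 0.0796, adjusted p = 0.211 by edgeR) for MFI8 and 0.39 (SE 0.0791, adjusted p = 0.466 by edgeR) for MASM7. Within each library number the muscle list was also higher with either compound than with vehicle. The part of these differences in the comparisons below was not tested. The chondrocyte list was lower in library 2 too, through Sox9, a regulator of cartilage collagens, at 42.6 and 27.8 TPM with vehicle, 40.8 and 29.4 TPM with MASM7, and 40.5 and 38.0 TPM with MFI8.

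**Figure D2:**
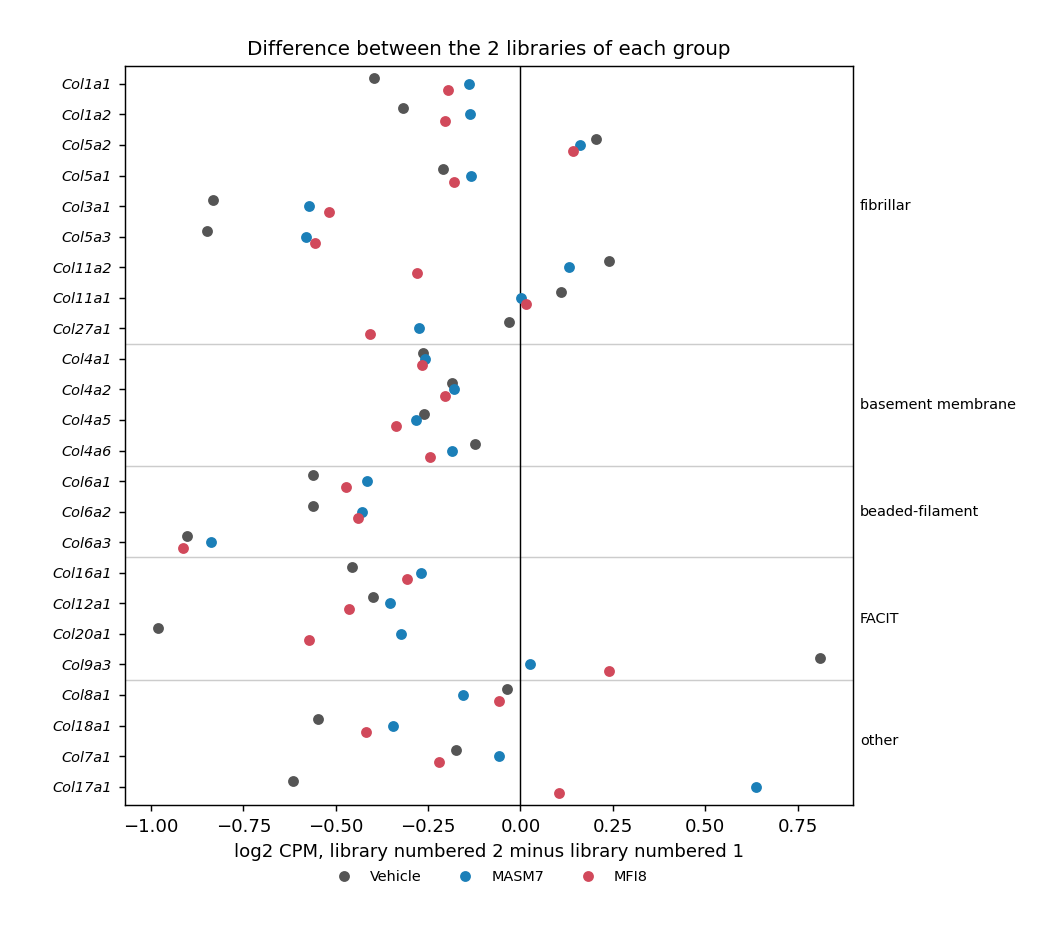
Difference in log2 CPM between library 2 and library 1 of each group, for each collagen gene, with 1 point per group and a line at 0. For 19 of the 24 genes all 3 points lie to the left of 0, and for Col5a2, Col11a1 and Col9a3 all 3 lie to the right.

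The first comparison asked which collagen genes differed after inhibition of mitofusins with MFI8. In the quasi-likelihood test of edgeR over the 14290 genes tested, with Benjamini-Hochberg adjustment at 0.05, 0 genes passed in MFI8 against vehicle (0.0%), and thus 0 collagen genes. At an unadjusted p under 0.05 there were 1409 genes (9.86%), of which 3 were collagen genes (12.5% of the 24). Of these 3, 2 were higher, against 5.21% of all genes tested, and 1 was lower, against 4.65%. The DESeq2 Wald test passed 49 genes and limma on log2(TPM + 1) passed 8, with 0 collagen genes in each. With the replicate block 720 genes passed (5.04%), of which 6 were collagen genes (25.0% of the 24). Col3a1, Col5a1, Col6a1 and Col6a2 were lower and Col4a1 and Col4a2 higher, with adjusted p between 1.13e-05 for Col3a1 and 0.0103 for Col6a2. With the block and the offsets 6 collagen genes passed again, beside 595 of all genes tested (4.16%). Col1a1 and Col1a2 took the place of Col4a1 and Col4a2, whose adjusted p was then 0.144 and 0.164. When every gene with at least 1 count was fitted without the block, 256 genes passed (0.957%), among them Col3a1, Col5a1 and Col6a1. On the CPM scale, libraries of the groups did not overlap for the 3 collagen genes with an unadjusted p under 0.05 in the fit of 14290 genes without the block (12.5%), against 40.2% of all genes tested, or 20.9% higher and 19.3% lower. The median log2 fold change over the 24 genes was -0.01, with 11 higher (50.7% of all genes tested were higher) and 13 lower, and over all genes tested it was 0.00. With the offsets it was -0.09, with 3 higher and 21 lower. Without offsets it was between -0.19 without library 2 of vehicle and 0.13 without library 1 of vehicle.

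Col5a1, the main chain of type V collagen, which starts fibrils and sets their width, had the smallest p. Its level was 179.3 and 157.1 TPM with vehicle, 186.3 and 168.9 TPM with MASM7, and 155.0 and 136.9 TPM with MFI8, so that both MFI8 libraries lay below both vehicle libraries. Its log2 fold change with MFI8 was -0.23 (SE 0.083, adjusted p = 0.425 by edgeR's quasi-likelihood test), and -0.36 with the offsets. It was -0.12 without library 1 of vehicle, -0.14 without library 2 of MFI8 and -0.33 without library 2 of vehicle. The gene lies at chr2:27886425-28039514 (GRCm38). The other chains of type V did not share this difference. Col5a2 was at 275.8 and 322.1 TPM with vehicle and 291.6 and 321.9 TPM with MFI8, and Col5a3 at 18.2 and 10.2 TPM and 17.8 and 12.1 TPM.

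Col3a1 was at 32.0 and 18.2 TPM with vehicle, 29.3 and 19.6 TPM with MASM7, and 20.9 and 14.6 TPM with MFI8. The MFI8 and vehicle libraries overlapped, although each MFI8 library was below the vehicle library of the same number. The log2 fold change was -0.53, the farthest from 0 of the 24 genes in this comparison, with an SE of 0.264 and an adjusted p of 0.538 by edgeR. It was -0.06 without library 1 of vehicle and -0.89 without library 2 of vehicle. Type I chains, the partners of type III in fibrils, had smaller values. Col1a1 was at 1435.3 and 1105.6 TPM with vehicle and 1278.4 and 1117.2 TPM with MFI8, and Col1a2 at 685.3 and 557.3 TPM and 613.0 and 532.6 TPM, with overlapping libraries for both and log2 fold changes of -0.11 (SE 0.112) and -0.15 (SE 0.0999). With the offsets both were at -0.22, with unadjusted p of 0.0455 and 0.0307 by edgeR.

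Of the type IV chains, Col4a2 and Col4a1 had positive values. Col4a2 was at 69.4 and 61.8 TPM with vehicle and 83.5 and 72.5 TPM with MFI8, without overlap, and its log2 fold change was 0.22 (SE 0.0895, adjusted p = 0.455 by edgeR). Col4a1, its partner in the most common type IV molecule, was at 88.5 and 74.6 TPM with vehicle and 104.4 and 86.9 TPM with MFI8, with a log2 fold change of 0.20 (SE 0.113) and a small overlap. The other chains of the class, Col4a5 and Col4a6, had log2 fold changes of 0.02 (SE 0.131) and -0.11 (SE 0.109). With the offsets the values of Col4a2 and Col4a1 were 0.10 and 0.09. Without library 1 of MFI8 the value of Col4a2 was 0.12, and without library 2 of vehicle it was 0.13. The summed level of the class was 194.0 and 167.8 TPM with vehicle and 225.6 and 189.8 TPM with MFI8, a log2 ratio of means of 0.20, although library 2 of MFI8 lay below library 1 of vehicle.

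Col4a1 and Col4a2 begin head to head. Col4a1 lies on the minus strand at chr8:11198423-11312826 and Col4a2 on the plus strand at chr8:11312805-11449287, so that the genes overlap by 22 bases at their starts. The shared stretch, chr8:11312805-11312826 on the plus strand of GRCm38.p6 from RefSeq, is shown because both genes had like values with both compounds.
Shared start of Col4a1 and Col4a2: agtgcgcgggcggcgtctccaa

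Whether counting used strand is not given in the sources used here, and reads on these 22 bases could have been given to either gene. Col4a6 and Col4a5 are arranged likewise on chromosome X, with start sites 1309 bases apart and no overlap, and their levels with vehicle were 10.2 and 9.49 TPM for Col4a6 and 26.0 and 21.9 TPM for Col4a5. Col18a1, the basement membrane collagen that holds endostatin, overlaps Slc19a1 on the opposite strand, whose highest count was 133.6% of that of Col18a1, so that its values are uncertain without strand.

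The third gene with an unadjusted p under 0.05 was Col11a2, a fibrillar chain of cartilage. Its level was low, at 2.37 and 2.84 TPM with vehicle, 2.71 and 2.95 TPM with MASM7, and 3.85 and 3.17 TPM with MFI8, with counts between 106 and 187. Both MFI8 libraries were above the other 4, and the log2 fold change against vehicle was 0.40 (SE 0.164, adjusted p = 0.467 by edgeR). It was 0.27 with the offsets and 0.26 without library 1 of MFI8. Col11a1, its partner in type XI collagen, was at 2.40 and 2.63 TPM with vehicle and 2.58 and 2.61 TPM with MFI8. Col27a1, a fibrillar collagen of growing cartilage, was at 2.08 and 2.06 TPM with vehicle and 2.52 and 1.90 TPM with MFI8.

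The 3 chains of type VI collagen all had negative values with MFI8, but none was among the 3 collagen genes with an unadjusted p under 0.05 in the fit of 14290 genes without the block. Col6a1 was at 434.2 and 298.3 TPM with vehicle and 375.7 and 270.9 TPM with MFI8, Col6a2 at 83.0 and 57.0 TPM and 70.9 and 52.3 TPM, and Col6a3 at 16.5 and 8.94 TPM and 16.7 and 8.89 TPM. Their log2 fold changes were -0.21 (SE 0.195), -0.21 (SE 0.194) and -0.03 (SE 0.352). The groups overlapped for each, since library 1 of MFI8 lay above library 2 of vehicle.

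The FACIT genes Col16a1, Col12a1, Col20a1 and Col9a3 had log2 fold changes between -0.17 and 0.01 with MFI8, and their libraries overlapped with vehicle. Libraries also overlapped for Col8a1, a short-chain network collagen, Col18a1 and Col17a1, with values between -0.14 and -0.02, and for Col7a1 with 0.15 (SE 0.0944), which was -0.01 with the offsets. Among the 6 collagen genes with the highest levels, Col8a1 had the narrowest range relative to its level, between 130.6 and 146.1 TPM over the 6 libraries.

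Leaving out libraries moved the count of collagen genes with an unadjusted p under 0.05 in MFI8 against vehicle. It was 7 without library 2 of vehicle, against 7.51% of all genes tested in that fit, and 5 without library 1 of MFI8, against 8.61%. The summed level of the 24 genes had a log2 ratio of means of -0.07 for MFI8 against vehicle, and -0.22 without library 2 of vehicle and 0.09 without library 1 of vehicle. The difference between the libraries of each group, described above, was thus larger than this ratio.

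**Figure D3:**
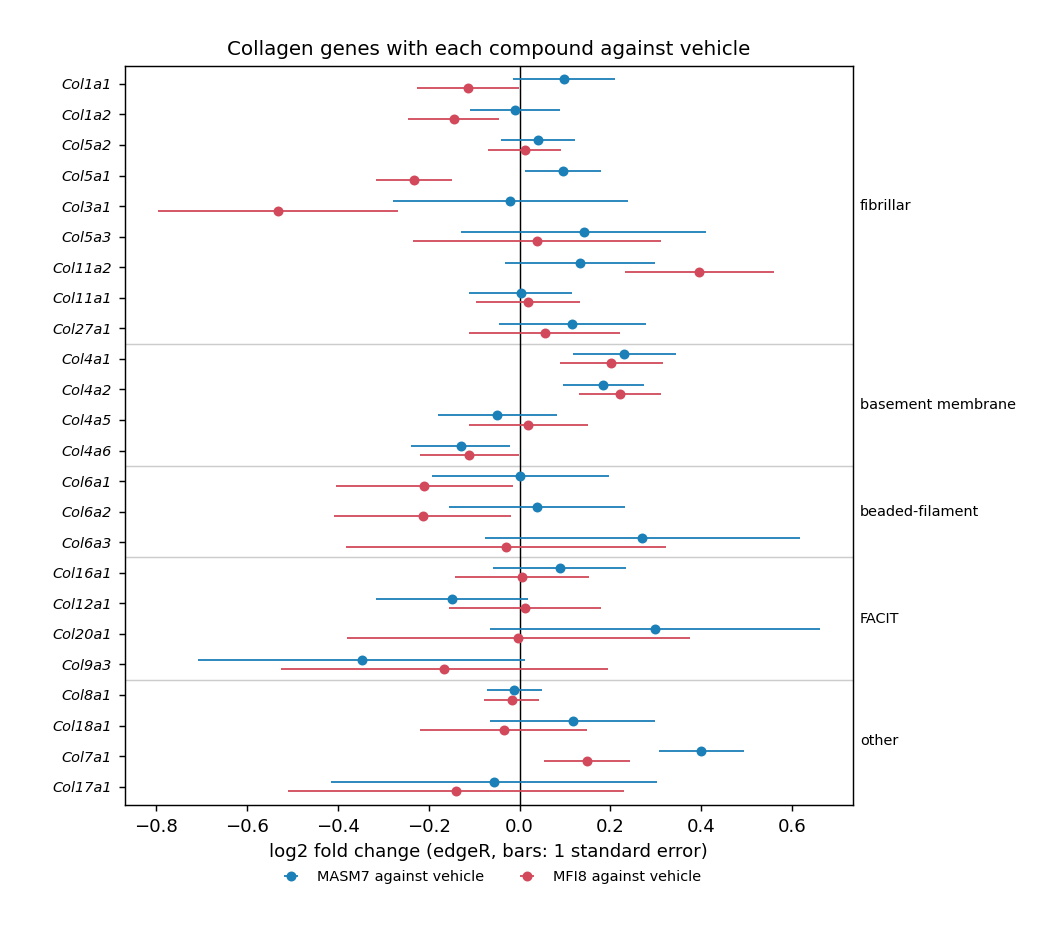
The log2 fold change of each collagen gene with MASM7 and with MFI8 against vehicle, from edgeR, with bars of 1 standard error and a line at 0. The groups share the vehicle libraries. Col5a1 and Col3a1 lie at -0.23 and -0.53 with MFI8, Col4a1 and Col4a2 lie between 0.18 and 0.23 with both compounds, and Col7a1 lies at 0.40 with MASM7.

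The second comparison asked the same for activation of mitofusins with MASM7. In MASM7 against vehicle 0 of 14290 genes passed in edgeR (0.0%), and 1458 genes had an unadjusted p under 0.05 (10.2%), of which 1 was a collagen gene (4.17% of the 24). It was higher, as were 5.32% of all genes tested, while 4.88% were lower. The DESeq2 Wald test passed 2 genes and limma on log2(TPM + 1) passed 14, again with 0 collagen genes in each. With the replicate block 554 genes passed (3.88%), of which 4 were collagen genes (16.7% of the 24). These were Col4a1, Col4a2, Col6a3 and Col7a1, all higher, with adjusted p between 0.00146 for Col7a1 and 0.0239 for Col4a2. With the block and the offsets Col7a1 was the only collagen gene that passed, beside 152 of all genes tested (1.06%). In the fit of every gene with at least 1 count 127 genes passed (0.475%), among them Col4a1 and Col7a1. On the CPM scale, libraries did not overlap for 2 collagen genes (8.33%), Col4a2 and Col7a1, both higher, against 42.8% of all genes tested, or 21.2% higher and 21.6% lower. The median log2 fold change over the collagen genes was 0.06, with 16 higher (50.1% of all genes tested were higher) and 8 lower, beside 0.00 over all genes tested, and it was -0.01 with the same offsets. Without library 1 of vehicle it was 0.28 and without library 2 of vehicle -0.12.

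Col7a1, which forms the anchoring fibrils between the basement membrane and the dermis, had the smallest p. It was at 10.6 and 9.48 TPM with vehicle, 13.4 and 12.8 TPM with MASM7, and 12.2 and 10.5 TPM with MFI8. Both MASM7 libraries were above the other 4, and the log2 fold change was 0.40 (SE 0.0930, adjusted p = 0.466 by edgeR), a fold of 1.32. With the offsets it was 0.26. The gene lies at chr9:108953586-108984875 on the plus strand and has 119 exons in its longest transcript, the most of the 24.

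Col4a2 and Col4a1 again had positive values, with levels with MASM7 of 78.4 and 68.9 TPM for Col4a2 and 103.3 and 85.9 TPM for Col4a1. In TPM, library 2 of MASM7 lay just below library 1 of vehicle for both genes. The log2 fold changes were 0.18 (SE 0.0893, adjusted p = 0.506 by edgeR) and 0.23 (SE 0.113, adjusted p = 0.511 by edgeR), and with the offsets they were 0.06 and 0.13. Without library 1 of MASM7 they were 0.09 and 0.10, and without library 2 of vehicle 0.09 and 0.10. Both comparisons use the same vehicle libraries, so that the values with MFI8 and MASM7 are not independent. Col4a5 and Col4a6 were at 25.2 and 20.6 TPM and at 9.49 and 8.31 TPM with MASM7, with log2 fold changes of -0.05 (SE 0.131) and -0.13 (SE 0.109).

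The 9 fibrillar genes had log2 fold changes between -0.02 and 0.14 with MASM7, and none of the 9 had libraries without overlap. Col1a1 was at 1412.9 and 1276.9 TPM and Col1a2 at 640.6 and 580.1 TPM, within the range of the vehicle libraries. Col5a2 was at 287.6 and 320.0 TPM and Col5a3 at 18.6 and 12.4 TPM. The type VI chains Col6a1, Col6a2 and Col6a3 were at 416.0 and 310.2 TPM, 81.8 and 60.5 TPM, and 19.5 and 10.9 TPM, and their log2 fold changes were 0.00, 0.04 and 0.27, each smaller than its SE. The FACIT genes were between -0.35 for Col9a3, with counts of 15 to 29, and 0.30 for Col20a1, with counts of 19 to 45.

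Without library 1 of vehicle, 8 collagen genes had an unadjusted p under 0.05 in MASM7 against vehicle, as did 12.8% of all genes tested in that fit. There were 3 without library 2 of MASM7 (3.86% of all genes), without library 1 of MFI8 (8.93%) or without library 2 of MFI8 (9.05%). The summed collagen level had a log2 ratio of means of 0.04, with 0.20 without library 1 of vehicle and -0.10 without library 2 of vehicle.

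The remaining comparison set the compounds against each other, at doses that differed. In MFI8 against MASM7 0 of 14290 genes passed in edgeR (0.0%), and 1026 had an unadjusted p under 0.05 (7.18%), of which 2 were collagen genes (8.33%). Both were lower, against 2.95% of all genes tested, and 4.23% of all were higher. The DESeq2 Wald test passed 27 genes and limma on log2(TPM + 1) passed 13, with 0 collagen genes in each. With the replicate block 439 genes passed (3.07%), of which 7 were collagen genes (29.2% of the 24), all lower. These were Col1a1, Col3a1, Col5a1, Col6a1, Col6a2, Col6a3 and Col7a1, with adjusted p between 1.26e-05 for Col3a1 and 0.0283 for Col7a1. With the block and the offsets Col1a2 passed as well, and 675 of all genes tested passed (4.72%). In the fit of every gene with at least 1 count 168 genes passed (0.628%), and 6 of these were collagen genes, the same ones as with the block except Col7a1. The collagen genes at an unadjusted p under 0.05 were Col5a1, with a log2 fold change of -0.33 (SE 0.0832, adjusted p = 0.446 by edgeR), and Col7a1, with -0.25 (SE 0.0918, adjusted p = 0.620 by edgeR). Next by p were Col3a1 with -0.51 (SE 0.262) and Col1a1 with -0.21 (SE 0.112). Without library 2 of MFI8 the values of Col7a1, Col3a1 and Col1a1 were -0.14, -0.27 and -0.12. Without library 1 of MASM7 they were -0.22, -0.20 and -0.14, and without library 1 of MFI8 -0.36, -0.78 and -0.31. Without library 2 of MASM7 the value of Col3a1 was -0.77. On the CPM scale, libraries did not overlap for 6 collagen genes (25.0%), against 39.2% of all genes tested and 19.6% in each direction, with Col1a1, Col5a1 and Col7a1 lower and Col11a1, Col11a2 and Col9a3 higher with MFI8. The median over the 24 genes was -0.08, with 7 higher (49.5% of all genes tested were higher) and 17 lower, and -0.08 with the offsets. The median changed sign to 0.04 without library 1 of MASM7 and to 0.03 without library 2 of MFI8, with 15 higher in each. Collagen genes with an unadjusted p under 0.05 were 8 without library 1 of MFI8 (7.37% of all genes), 4 without library 1 or library 2 of vehicle (7.8% and 7.74%) and 1 without library 1 of MASM7 (5.78%).

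Ratios of TPM between chains within a library do not depend on library size, and 9 such ratios were computed. Their size depends on the gene lengths behind TPM, which are not given in the sources used here, so only differences between libraries are read. Col1a1 over Col1a2 was 2.09 and 1.98 for vehicle, 2.21 and 2.20 for MASM7, and 2.09 and 2.10 for MFI8. In library 1 of vehicle the counts of Col1a1 and Col1a2 were closer, at 61178 and 55303, with longest transcripts of 5930 and 5348 bases. Col6a1 over Col6a2 was between 5.09 and 5.30 and Col4a1 over Col4a2 between 1.20 and 1.32 in all libraries. These ratios were steadier over the 6 libraries than the levels of the same genes. The ratio of Col5a2 over Col5a1 moved with the library number, at 1.54 and 2.05 for vehicle, 1.54 and 1.89 for MASM7, and 1.88 and 2.35 for MFI8.

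Col4a1 over Col4a5, chains of different type IV molecules, was 3.41 and 3.40 for the vehicle libraries, 4.10 and 4.17 for those of MASM7, and 3.77 and 3.96 for those of MFI8. The 3 groups did not overlap in this ratio, and both compounds lay above vehicle. Col4a5 over Col4a6 was between 2.31 and 2.74, with MFI8 at 2.74 and 2.57 just above vehicle at 2.55 and 2.31. Col1a1 over Col3a1 was 44.9 and 60.8 for vehicle, 48.2 and 65.1 for MASM7, and 61.1 and 76.4 for MFI8, so that both MFI8 libraries were above both vehicle libraries by a margin smaller than the spread within groups. With 2 libraries against 2, an exact permutation test cannot give a two-sided p below 0.333, and no test of the ratios was made.

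**Figure D4:**
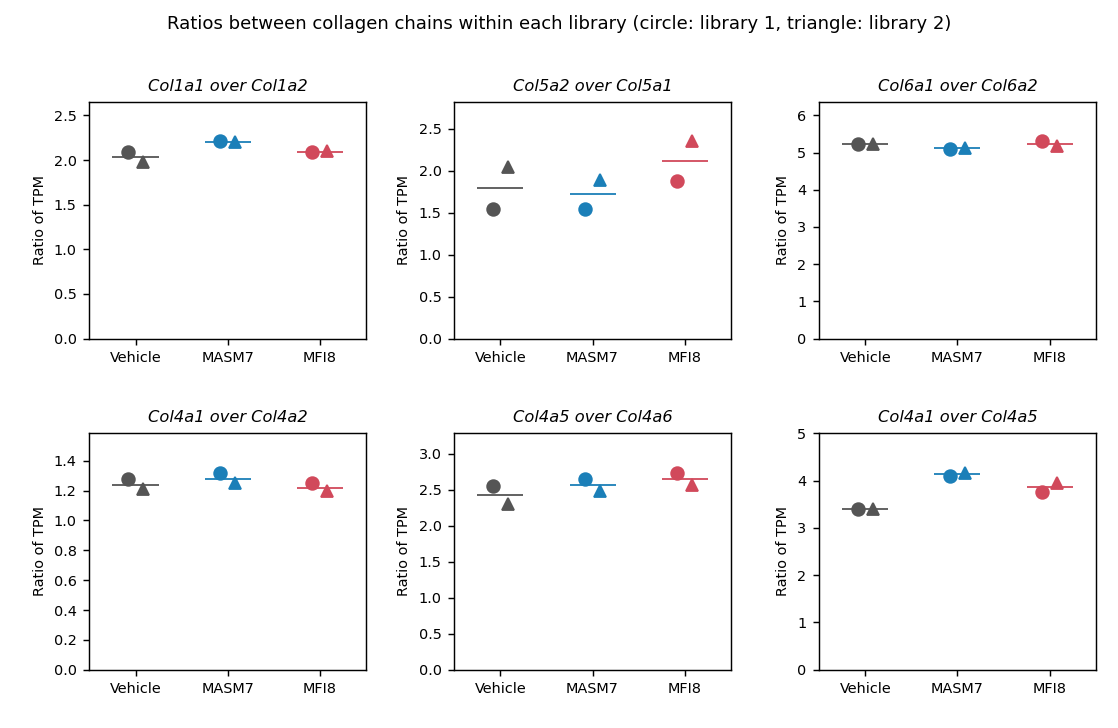
Ratios of TPM between collagen chains in each library, by group, with circles for library 1, triangles for library 2 and lines at the group mean. Axes start at 0. Col1a1 over Col1a2 and Col6a1 over Col6a2 are nearly level across the 6 libraries, Col5a2 over Col5a1 differs between library numbers, and Col4a1 over Col4a5 is 3.41 and 3.40 with vehicle, below the other 4 libraries.

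The genes that make and fold collagen were examined from a list of 23, of which 22 were tested and 0 passed in either comparison with vehicle. P4ha1 passed with MFI8 (adjusted p = 0.0214) and Serpinh1 with MASM7 (adjusted p = 0.0155) when the replicate block was fitted. With the block and the offsets P4ha1 passed (adjusted p = 0.0127), whereas the value of Serpinh1 was 0.09 and its adjusted p 0.151. Their summed level was 3925 and 3886 TPM with vehicle, 4070 and 4157 TPM with MASM7, and 4018 and 4027 TPM with MFI8, with library 2 lower with vehicle and higher with both compounds. Serpinh1, the collagen chaperone HSP47, was at 861.3 and 838.2 CPM with vehicle, 943.4 and 999.6 CPM with MASM7 and 877.8 and 909.6 CPM with MFI8, with a log2 fold change of 0.19 (SE 0.0508) for MASM7. Plod3, a lysyl hydroxylase, had 0.16 (SE 0.0542) with MASM7, which was 0.04 with the offsets. P4ha1, a subunit of prolyl hydroxylase, was at 149.5 and 148.6 CPM with vehicle, 133.7 and 138.1 CPM with MASM7 and 126.2 and 136.2 CPM with MFI8, below vehicle in all 4 treated libraries, with log2 fold changes of -0.18 (SE 0.0564) for MFI8 and -0.13 (SE 0.0562) for MASM7, the latter -0.09 with the offsets. At an unadjusted p under 0.05, the list had 0 higher and 1 lower with MFI8, and 3 higher and 1 lower with MASM7. Counts of this list and of those that follow stand beside 5.21% of all genes tested higher and 4.65% lower with MFI8, and 5.32% and 4.88% with MASM7.

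Of 13 genes of procollagen processing and crosslinking, 11 were tested and 0 passed, with 1 higher at an unadjusted p under 0.05 with MFI8 and 0 with MASM7. That gene was Loxl4, a crosslinking lysyl oxidase, at 144.4 and 147.5 CPM with vehicle and 163.9 and 164.1 CPM with MFI8, a log2 fold change of 0.17 (SE 0.0518), which was 0.09 with the offsets. Loxl4 passed with MFI8 (adjusted p = 0.0289) and Adamts14 with MASM7 (adjusted p = 0.0249) under the replicate block. Neither passed once the offsets were added (adjusted p = 0.184 and 0.255), whereas Pcolce, an enhancer of procollagen trimming, then passed with MFI8, at -0.175 (adjusted p = 0.00353). Tll1 and Adamts14, which trim procollagens, had libraries that overlapped with vehicle, with 0.45 (SE 0.249) for Tll1 with MFI8 and 0.25 (SE 0.131) for Adamts14 with MASM7. Among 10 collagen receptors, of which 7 were tested, 0 had an unadjusted p under 0.05 with MFI8 and 1 with MASM7, which was Ddr1, a receptor tyrosine kinase for collagen, with 0.20 (SE 0.0817). Its value was 0.07 with the offsets and 0.10 without library 2 of MASM7. The integrin subunits Itga10 and Itga2 were below 3 CPM in every library. The collagen receptors had 0 genes passing under the block, and with the offsets added Mrc2, an endocytic receptor, passed with MFI8, at -0.12 (adjusted p = 0.0493).

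Small leucine-rich proteoglycans bind collagen fibrils, and 4 of 9 were tested. Ogn was at 24.2 and 21.4 CPM with vehicle, 19.8 and 16.8 CPM with MASM7 and 18.7 and 18.0 CPM with MFI8, with log2 fold changes of -0.31 (SE 0.106) for MFI8 and -0.31 (SE 0.105) for MASM7. With MASM7 its value was -0.20 without library 2 of MASM7. It was the 1 gene of the list with an unadjusted p under 0.05 in each of these comparisons. Aspn had low levels, at most 1.67 CPM, with -0.75 (SE 0.343) for MFI8 and -0.69 (SE 0.334) for MASM7, and Bgn, the most abundant, was at 765.7 to 922.7 CPM. All 4 had negative values with MFI8, with a median of -0.34, and 0 passed. Under the replicate block Ogn passed with both compounds (adjusted p = 0.0281 with MFI8 and 0.0280 with MASM7) and Dcn with MFI8 (adjusted p = 4e-05). Once the offsets were added Dcn passed with MFI8 (adjusted p = 0.00312), but Ogn had -0.20 and -0.19 and an adjusted p of 0.160 with MFI8 and 0.247 with MASM7.

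The TGF-beta pathway is a main inducer of collagen genes in fibroblasts. All 14 genes listed were tested, and 0 passed in either comparison. Thbs1, an activator of latent TGF-beta, was at 399.6 and 456.3 CPM with vehicle, 492.9 and 542.9 CPM with MASM7 and 505.0 and 554.0 CPM with MFI8, with log2 fold changes of 0.28 (SE 0.0766) and 0.31 (SE 0.0767), the former 0.18 without library 1 of vehicle. Ccn2, a target of the pathway, was at 86.6 and 116.5 CPM with vehicle, 97.0 and 139.7 CPM with MASM7 and 118.9 and 168.0 CPM with MFI8, with 0.50 (SE 0.196) for MFI8, which was 0.23 without library 2 of MFI8, 0.31 without library 1 of vehicle and 0.73 without library 2 of vehicle. Tgfbr1, a receptor of the pathway, had -0.17 (SE 0.0929) for MASM7, and -0.07 with the block and the offsets. Thbs1 and Ccn2 were higher in library 2 of each group, the reverse of most collagen genes. The list had 2 higher and 0 lower at an unadjusted p under 0.05 with MFI8, 1 higher and 0 lower with MASM7, and medians of -0.01 and -0.04. Under the replicate block Thbs1 and Ccn2 passed with both compounds, with adjusted p of at most 0.0133, and Skil with MFI8 alone (adjusted p = 0.0336), all with positive values. These calls were also made when the offsets were added to the block.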

How the data were processed

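RNA of 6 libraries was sequenced by the authors after polyA selection with a TruSeq RNA kit. Per the study's methods and the submitters' processing notes, reads were demultiplexed with bcl2fastq, trimmed with Trimmomatic, aligned to mm10 (GRCm38) with STAR and counted over exons with featureCounts. The annotation, its gene lengths and the strand setting are not given in the sources used here. The authors deposited TPM values, raw counts (whole numbers for each gene) and normalized counts, and the latter were not used here. There were 0 columns without a sample.

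Groups came from sample titles. Raw counts of all genes were fitted in edgeR 4.0.16 (R 4.3.3) with filterByExpr, TMM factors, 1 coefficient per group and all libraries in 1 fit. The test was its quasi-likelihood F test, and p-values were adjusted over 14290 genes by Benjamini-Hochberg, with a threshold of 0.05. The standard error was taken from the log2 fold change and the F statistic. The common dispersion was 0.00394. Log2 CPM used a prior count of 2, and TPM served for levels, sums and ratios. The script was tested on simulated data. Libraries share replicate numbers in their titles, with no batch named. Deviations of same-numbered libraries from their group means correlated at 0.188, 0.152 and 0.165 over all genes and at 0.508, 0.621 and 0.538 over the more abundant 7145, so a fit with the number as a block is given where it changes a call. Library totals are given with the results, and with 2 libraries per group the SDs of levels are imprecise.

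The members, classes and lists were chosen with earlier results of these data known. Values were named for the chains of types I, III, IV, V and VI, the 5 highest levels, the 4 smallest p-values per comparison, the genes nearest to the limit of 10 counts and, from each list, the 2 smallest p-values per comparison with vehicle. Other collagen genes are given by ranges or singly for their class. Dcn, Skil, Pcolce and Mrc2 were named after their values were seen, and 1 list gene is not reported here. Alternatives were size factors of DESeq2 1.42.0, library size alone, other filters, only the 2 groups compared, the DESeq2 Wald test, limma 3.58.1 on log2(TPM + 1) or log2(TPM + 0.1), offsets for GC content and transcript length (lowess, span 0.3, GENCODE vM21, 97.9% of genes tested), the replicate block and leaving out each library.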

Additional observations from a re-analysis of the deposited data

How the results depend on the processing

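With 2 libraries per group, a difference the size of that between libraries 1 and 2 limits every comparison above. The 23 changes of single genes given with their SE and among the smallest p-values or list genes with an unadjusted p under 0.05 kept their direction in all 276 alternatives and in all 138 cases with a library left out, and 41 of the alternatives brought an adjusted p under 0.05. These changes were chosen for small p-values in the same libraries, so that a kept direction in refits of the same counts is no independent support. Genes passing, 0 in each comparison, were 256 for MFI8 against vehicle, 127 for MASM7 against vehicle and 168 for MFI8 against MASM7 when every gene with at least 1 count was fitted, 49, 2 and 27 with the DESeq2 Wald test, 8, 14 and 13 with limma on log2(TPM + 1), 19, 18 and 19 on log2(TPM + 0.1), and 8, 18 and 15 on log2(TPM + 1) without the filter. With only the 2 groups compared there were 1 for MASM7 against vehicle and 2 for MFI8 against MASM7. Collagen genes with an unadjusted p under 0.05, at 3, 1 and 2, were 9, 6 and 10 in the fit of every gene (7.29%, 7.93% and 5.95% of all genes). Under each limma setting they were 1 in MFI8 against vehicle (7.69% to 9.0% of all genes) and 0 in MFI8 against MASM7 (6.48% to 7.54%). With only the 2 groups they were 3 for MASM7 against vehicle (9.28%) and 4 for MFI8 against MASM7 (8.08%). The cause was not tested. In the fit of every gene 26760 genes were tested.

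With the replicate block, 720 genes passed for MFI8 against vehicle, 554 for MASM7 against vehicle and 439 for MFI8 against MASM7, and 10, 8 and 10 collagen genes had an unadjusted p under 0.05, against 18.6%, 19.9% and 15.6% of all genes. With the replicate block and the offsets for GC content and transcript length, 595, 152 and 675 genes passed (4.16%, 1.06% and 4.72%). In these fits 12, 7 and 10 collagen genes had an unadjusted p under 0.05, against 17.1%, 13.8% and 17.9% of all genes. The summed level within replicate numbers had mean log2 ratios of -0.068 for MFI8 and 0.049 for MASM7 against vehicle.

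With a library left out, genes passing were 0 to 26 for MFI8 against vehicle, 0 to 2 for MASM7 against vehicle and 0 to 24 for MFI8 against MASM7, and collagen genes with an unadjusted p under 0.05 were 2 to 7, 1 to 8 and 1 to 8. The median log2 fold change of the collagen genes was -0.1903 to 0.1282, -0.1196 to 0.2758 and -0.2389 to 0.0448, and the log2 ratio of the summed level was -0.215 to 0.088 with MFI8 and -0.099 to 0.203 with MASM7. In the fits with a library left out, 5.95% to 10.6% of all genes tested had an unadjusted p under 0.05 for MFI8 against vehicle. The share was 3.86% to 12.8% for MASM7 against vehicle and 4.2% to 7.8% for MFI8 against MASM7. Where a group had 1 library left, that library was assumed to vary like the others. The medians for MFI8 against vehicle changed sign with library size alone (0.0007) and with limma (0.0174 to 0.0387), and for MASM7 with the offsets (-0.0122), by less than the spread between libraries. For MFI8 against vehicle the median was -0.0914 with the offsets and -0.0903 with the block added, with 21 of 24 genes lower in each.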
